A study of Mus musculus with 12 samples.

Results

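The genes described here encode 10 proteins of cytoplasmic RNA granules, and they were chosen by name from the 20620 gene rows of the count table, with all 12 libraries used. Of these, 6 encode stress granule proteins (*G3bp1*, *G3bp2*, *Caprin1*, *Tia1*, *Tial1* and *Pabpc1*) and 4 encode P-body proteins (*Dcp1a*, *Ddx6*, *Edc4* and *Lsm14a*). All samples were whole testes of C57BL/6 mice at postnatal day 16, either *Mael*+/-, which served as controls, or *Mael*-/-. Maelstrom (MAEL) is a germ cell protein needed for piRNA-guided silencing of transposons, and without it spermatocytes express the retrotransposon LINE-1 (L1) at high levels. From each of 3 *Mael*+/- and 3 *Mael*-/- extracts, all prepared with cycloheximide to hold ribosomes on their messages, a total RNA library and a library of micrococcal nuclease ribosome footprints were made. How many animals went into an extract is not stated. The p-values set genotype differences against the variation between libraries of these extracts, and not between a known number of animals. A whole testis mixes germ cells with somatic cells, and a lower level cannot separate fewer cells of a type from less RNA per cell.

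Stress granules and P-bodies are membraneless assemblies of messenger RNA and protein. Stress granules form when translation initiation is blocked, around the scaffold proteins G3BP1 and G3BP2 and their partner CAPRIN1, and also hold the RNA-binding proteins TIA1 and TIAL1 and the poly(A)-binding protein PABPC1. P-bodies gather the mRNA decapping machinery, including the decapping co-activator DCP1A, the scaffold EDC4, the helicase DDX6 and its partner LSM14A. The study described cytoplasmic L1 bodies in *Mael*-/- spermatocytes, and the question here was whether the genes for these granule proteins were expressed or translated differently in the testes that make such bodies. The libraries measured RNA and ribosomes, not the proteins or where they were.

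Ribosome footprints were counted over coding sequence, so the stretch around each start codon is printed to show where that begins in a curated transcript. The gene annotation used for counting is not stated. These are RefSeq sequences on GRCm38, read from the curated transcript with the longest coding sequence, 5′ to 3′, with 12 bases before the ATG and 9 after it, and capitals mark the 3 bases before the ATG, the ATG and the next base.
G3bp1: cccaccaaaGCGATGGttatggag
G3bp2: tgcagcaaaGAAATGGttatggag
Caprin1: cgcgcgcgcACGATGCcctcggcc
Tia1: accgcagcaGCCATGGaggacgag
Tial1: gtcgcacccACCATGAtggaagac
Pabpc1: agccgtgccGAGATGAaccccagc
Dcp1a: aactttgccTGGATGGcactttcc
Ddx6: agctaacaaAGCATGAgcacggcc
Edc4: gtggctgggCCCATGGcctcctgc
Lsm14a: ggcggcggcGCCATGAgcgggggc

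*G3bp1* and *G3bp2*, which are paralogs, had the same letters from the ATG to the end of the printed stretch. On the transcript strand, the letters GNNATGG stood at the start codon of 3 members, *G3bp1*, *G3bp2* and *Tia1*, and of 20.6% of 19501 genes with a curated coding transcript. ANNATGG stood at none of the 10 and at 21.9% of those genes. In the 5′ untranslated region of the same transcripts, *Tia1* had 2 further ATGs, *Ddx6* 3 and *Lsm14a* 2, and the other 7 members had none. The coding sequence made up 88.3% of the *Edc4* transcript and 67.8% of that of *Pabpc1*, but 23.0% of that of *Ddx6* and 25.9% of that of *Tia1*.

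Gene counts summed to between 13697267 and 27462358 in the RNA libraries and to between 7609932 and 13233565 in the footprint libraries. *Mael* had at most 2 counts in a *Mael*-/- RNA library, and 0, 0 and 7 counts in the *Mael*-/- footprint libraries. Its RNA ran from 144 to 219 CPM (counts per 1000000, scaled by gene total and TMM factor) in *Mael*+/- libraries. RNA of the young L1 family L1Md_T, summed over its copies, ran from 55.9 to 85.4 CPM in *Mael*+/- and from 306 to 521 CPM in *Mael*-/- libraries. Markers of spermatogonia, meiotic cells, Sertoli, Leydig and peritubular cells and macrophages were all detected, each in at least 1 library. *Mael*+/- extract 1 stood apart from the other 5 extracts. Its 11 pachytene spermatocyte markers summed to 853 CPM in RNA and 1194 CPM in footprints, against 247 to 298 CPM and 336 to 432 CPM in the others, with *Pgk2* at 0 in some libraries of each assay and *Adam3* and *Acr* at 0 in some footprint libraries. Its 8 early meiotic prophase markers summed to 1827 CPM in RNA, against 664 to 1065 CPM in the others. Where results rest on this extract, values without it are given beside them.

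All 10 genes were well measured, with between 313 and 13435 counts per gene and library, and all 10 passed the filter on low counts in both assays. Levels were compared between genes per kilobase, of exons for RNA and of coding sequence for footprints. Of the stress granule genes, *Pabpc1* (chromosome 15, 36595658 to 36609581, minus strand, GRCm38) had the highest RNA level at 105 ± 40.9 CPM per kb (SD over 6 libraries of both genotypes). *Caprin1* (chromosome 2, 103762945 to 103797669, minus strand) followed at 66.1 ± 4.99 CPM per kb and *G3bp2* (chromosome 5, 92052145 to 92137725, minus strand) at 62.7 ± 3.90 CPM per kb. The ranges of these 3 genes ran into each other in that order. *G3bp1* (chromosome 11, 55469657 to 55500888, plus strand) stood below all of them at 49.3 ± 3.54 CPM per kb. The RNA-binding proteins *Tial1* (chromosome 7, 128439772 to 128461726, minus strand) and *Tia1* (chromosome 6, 86404203 to 86433405, plus strand) were the lowest of the 10, at 8.54 ± 0.957 and 7.96 ± 0.550 CPM per kb, and overlapped.

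The P-body genes lay between these. *Ddx6* (chromosome 9, 44602983 to 44640731, plus strand) and *Edc4* (chromosome 8, 105880873 to 105893225, plus strand) overlapped in RNA, at 28.01 ± 3.31 and 27.7 ± 2.06 CPM per kb. *Lsm14a* (chromosome 7, 34344144 to 34390026, minus strand) stood at 20.5 ± 1.04 CPM per kb and *Dcp1a* (chromosome 14, 30479486 to 30527056, plus strand) at 12.3 ± 0.979 CPM per kb, each apart from its neighbours in the order. With the length of the curated transcript in place of all exons, *Dcp1a* at 12.5, *Tia1* at 12.4 and *Tial1* at 12.2 CPM per kb came to nearly the same level. Annotated exons of a gene on the opposite strand covered 10.5% of the exons of *G3bp2* and 5.47% of those of *Lsm14a*, and 0% and 0.91% of their coding sequence, and whether counting used strand is not stated. Among 13395 genes measured in both assays, the RNA level placed *Pabpc1* at percentile 96.2 and *Tia1* at percentile 44.6. In footprints the order began with *G3bp2* at 268 ± 18.4, *Caprin1* at 248 ± 20.1 and *Pabpc1* at 209 ± 41.6 CPM per kb, again with overlapping ranges, and ended with *Tia1* at 33.3 ± 0.879 and *Dcp1a* at 28.04 ± 1.96 CPM per kb. *G3bp1*, which came before *Ddx6* and *Lsm14a* in RNA, came after both in footprints per kb of all coding sequence, at 77.5 ± 5.34 CPM per kb, with *Lsm14a* at 101 ± 5.54 and *Ddx6* at 151 ± 13.6, an order that changed when repeated sequence was left out, as given below.

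**Figure D1:**
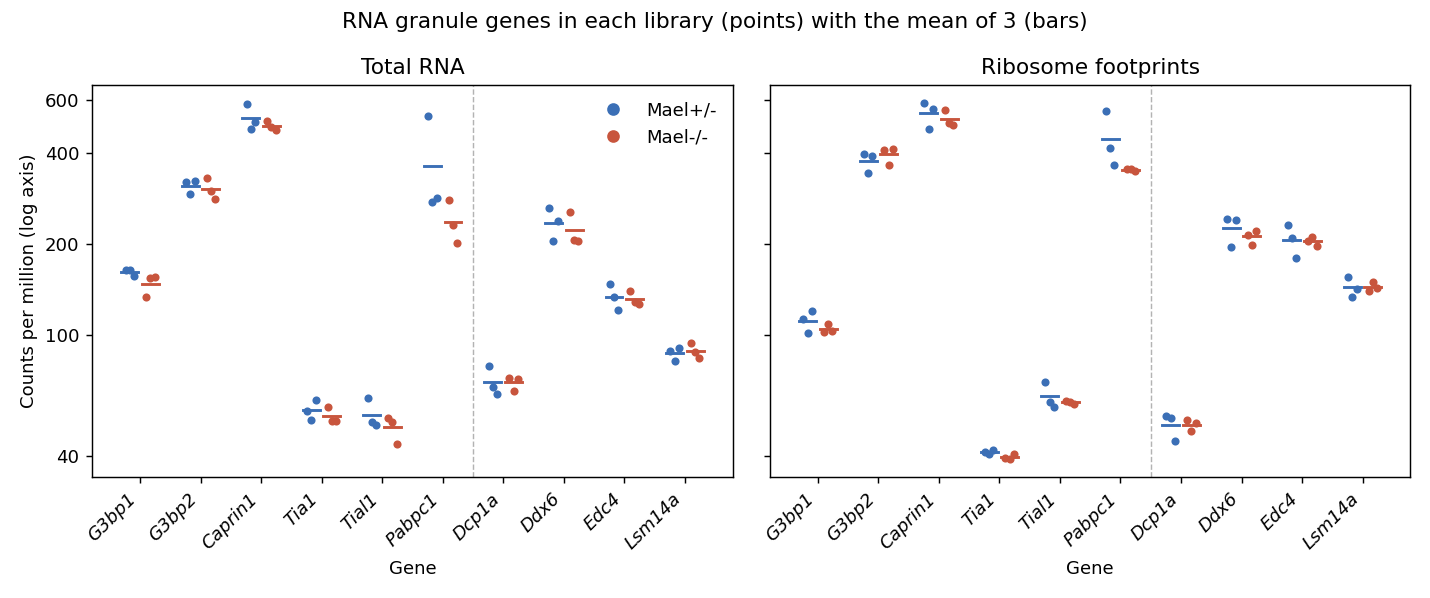
CPM of the 10 genes in each library (log axis), with total RNA on the left and ribosome footprints on the right, *Mael*+/- in blue, *Mael*-/- in red, bars at the mean of 3 libraries and a dashed line between stress granule and P-body genes. The genotypes lie on top of each other for most genes, while 1 *Mael*+/- library of *Pabpc1* stands at 530.4 CPM in RNA, above the 5 others at 202 to 284 CPM.

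The first comparison asked whether RNA of these genes differed between *Mael*-/- and *Mael*+/- testes. None of the 10 was called at an edgeR adjusted p under 0.05, where 0.116% of 14685 genes were. The same held in footprints, where 0 of the 10 were called and 0.0593% of 13500 genes were. DESeq2 also called 0 of the 10 in either assay, where it called 0.372% of genes in RNA and 0.149% in footprints. At an unadjusted p under 0.05 there was 1 member in each assay, *Pabpc1* both times, against 5.4% of all genes in RNA and 4.33% in footprints. The median log2 fold change of the 10 was -0.08 in RNA and -0.06 in footprints, and that of all genes was -0.00 and -0.01. Without *Mael*+/- extract 1 the median of the 10 was -0.01 in RNA and 0.01 in footprints, beside 0.00 and -0.00 for all genes.

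The intervals show how large a difference remains compatible with these libraries. For the 9 members other than *Pabpc1*, log2 fold changes ran from -0.14 to 0.03 in RNA, and no 95% interval went below 0.756-fold or above 1.17-fold. In footprints they ran from -0.09 to 0.07, with intervals between 0.795-fold and 1.22-fold. Intervals within 1.5-fold either way were found for 9 of 10 members in each assay, and for 72.1% of all genes in RNA and 72.0% in footprints. A sign below 0 was found for 9 of 10 members in RNA, beside 50.38% of all genes. Without *Mael*+/- extract 1 it was found for 6 of 10, beside 49.46%. In footprints it was found for 7 of 10, beside 52.49% of all genes, and without that extract for 5 of 10, beside 51.19%.

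**Figure D2:**
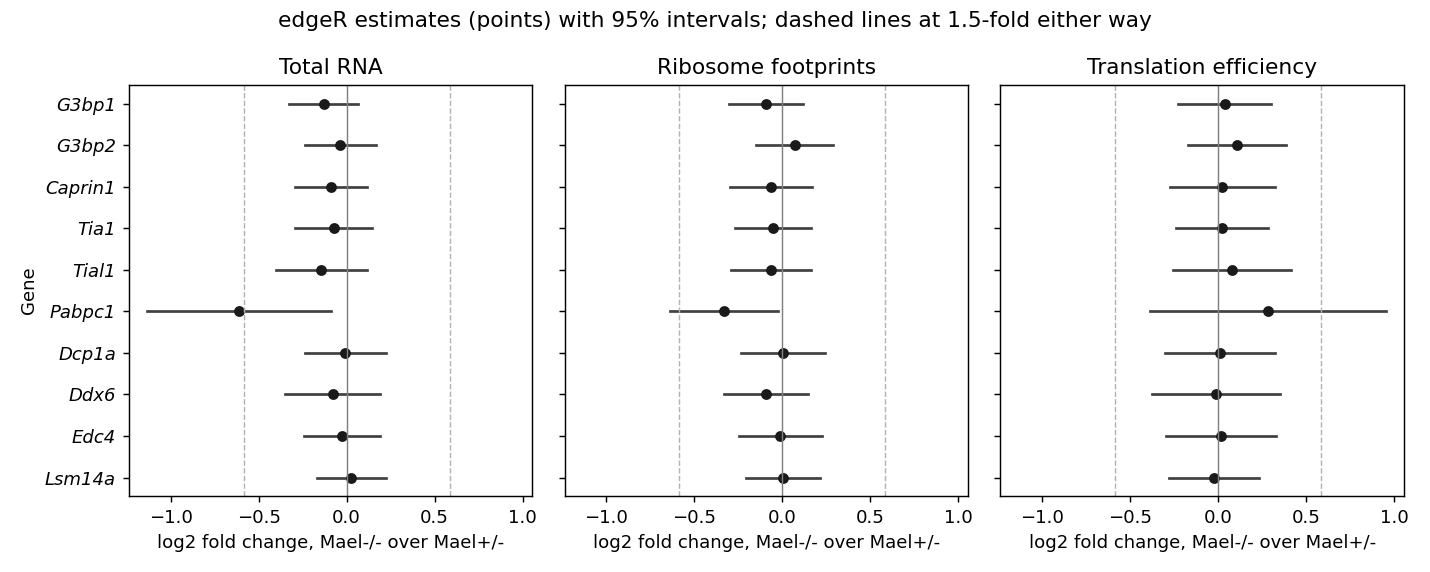
edgeR log2 fold changes of *Mael*-/- over *Mael*+/- (points) with 95% intervals (lines) for the 10 genes in RNA, footprints and translation efficiency, with dashed lines at 1.5-fold either way. All intervals but those of *Pabpc1* lie inside the dashed lines, and all cover 0 except *Pabpc1* in RNA and footprints.

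Among the stress granule scaffolds, *G3bp1* RNA was 164, 165 and 157 CPM in *Mael*+/- replicates 1 to 3 and 134, 154 and 156 CPM in *Mael*-/- replicates 1 to 3. The *Mael*-/- libraries all lay below the *Mael*+/- ones, by little for 2 of them. It was the only member without overlap in RNA, and 5.03% of all genes were lower in every *Mael*-/- library. Higher in every *Mael*-/- library were 0 members in either assay, beside 5.23% of all genes in RNA and 4.24% in footprints. The log2 fold change was -0.13 (SE 0.09, 95% interval -0.32 to 0.07, edgeR adjusted p 0.982), and without *Mael*-/- replicate 1 it was -0.07. Its footprints were 113, 102 and 121 CPM in *Mael*+/- and 102, 109 and 103 CPM in *Mael*-/- libraries, so that the genotypes overlapped.

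*G3bp2* RNA was 322, 293 and 323 CPM in *Mael*+/- and 331, 301 and 283 CPM in *Mael*-/- libraries. Its footprints were 396, 345 and 393 CPM in *Mael*+/- and 410.5, 367 and 414 CPM in *Mael*-/- libraries. The genotypes overlapped in both assays, with log2 fold changes of -0.04 (SE 0.09) in RNA and 0.07 (SE 0.10) in footprints (edgeR adjusted p 0.985 and 0.998). *Caprin1*, whose product binds G3BP1, had the highest mean RNA CPM of the 10 genes, before any scaling by length. Its RNA was 582, 482 and 507 CPM in *Mael*+/- and 510.3, 489 and 478 CPM in *Mael*-/- libraries, with the highest value in *Mael*+/- extract 1. Its footprints were 588, 482 and 561 CPM in *Mael*+/- and 558, 503 and 497 CPM in *Mael*-/- libraries. Its log2 fold changes were -0.09 (SE 0.09) and -0.07 (SE 0.11), with edgeR adjusted p of 0.982 and 0.998.

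*Tia1* and *Tial1* encode related proteins that bind U-rich RNA and hold back translation under stress. *Tia1* RNA was 56.4, 52.5 and 61.3 CPM in *Mael*+/- and 57.9, 51.9 and 52.1 CPM in *Mael*-/- libraries. Its footprints were the most even of the 10 genes in *Mael*+/-, at 41.3, 40.5 and 41.6 CPM, beside 39.4, 38.9 and 40.7 CPM in *Mael*-/-, where 1 value reached into the *Mael*+/- range. *Tial1* RNA was 61.9, 51.9 and 50.4 CPM in *Mael*+/- and 53.3, 51.9 and 43.7 CPM in *Mael*-/- libraries. Its log2 fold change in RNA, -0.14 (SE 0.12, 95% interval -0.40 to 0.12, edgeR adjusted p 0.982), was the lowest after that of *Pabpc1*. Without *Mael*+/- extract 1 that of *Tial1* was -0.05 (SE 0.11), and that of *G3bp1* was lower, at -0.12 (SE 0.09). *Tial1* footprints were 70.2, 60.4 and 57.8 CPM in *Mael*+/- and 60.7, 60.1 and 59.4 CPM in *Mael*-/- libraries, with *Mael*+/- extract 1 above the 5 others.

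*Pabpc1*, whose product coats poly(A) tails and promotes their translation, was the exception among the 10 genes. Its RNA was 530.4, 275 and 284 CPM in *Mael*+/- replicates 1 to 3 and 280.1, 231 and 202 CPM in *Mael*-/- replicates 1 to 3. *Mael*+/- extract 1 stood far above the rest, and 1 *Mael*-/- library lay within the *Mael*+/- range. The log2 fold change was -0.61 (SE 0.23, 95% interval -1.13 to -0.09, unadjusted p 0.0263, edgeR adjusted p 0.888). Its footprints were 554, 417 and 365 CPM in *Mael*+/- and 355, 355 and 349.9 CPM in *Mael*-/- libraries. There the genotypes did not overlap, as for 4.85% of all genes with every *Mael*-/- library lower. The log2 fold change was -0.33 (SE 0.14, 95% interval -0.64 to -0.03, unadjusted p 0.0359, edgeR adjusted p 0.998).

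Both *Pabpc1* differences leaned on *Mael*+/- extract 1. Without it, the log2 fold change was -0.23 (SE 0.12, 95% interval -0.48 to 0.01, edgeR adjusted p 0.793) in RNA and -0.15 (SE 0.09, 95% interval -0.35 to 0.05, edgeR adjusted p 0.871) in footprints. With each other RNA library left out in turn it ran from -0.78 to -0.51 in RNA, and with each other footprint library from -0.46 to -0.33 in footprints. *Pabpc1* was 1.90-fold higher in RNA and 1.42-fold higher in footprints in *Mael*+/- extract 1 than in the mean of the other 2 *Mael*+/- extracts. In that extract the summed pachytene markers were 2.91-fold higher in both assays and the early prophase markers 2.47-fold higher in RNA and 2.57-fold in footprints, while spermatogonial markers were 0.926-fold and 0.915-fold. The part of these cells in the *Pabpc1* level was not tested. In the other 9 members the same ratio ran from 0.991 to 1.21 in RNA.

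**Figure D3:**
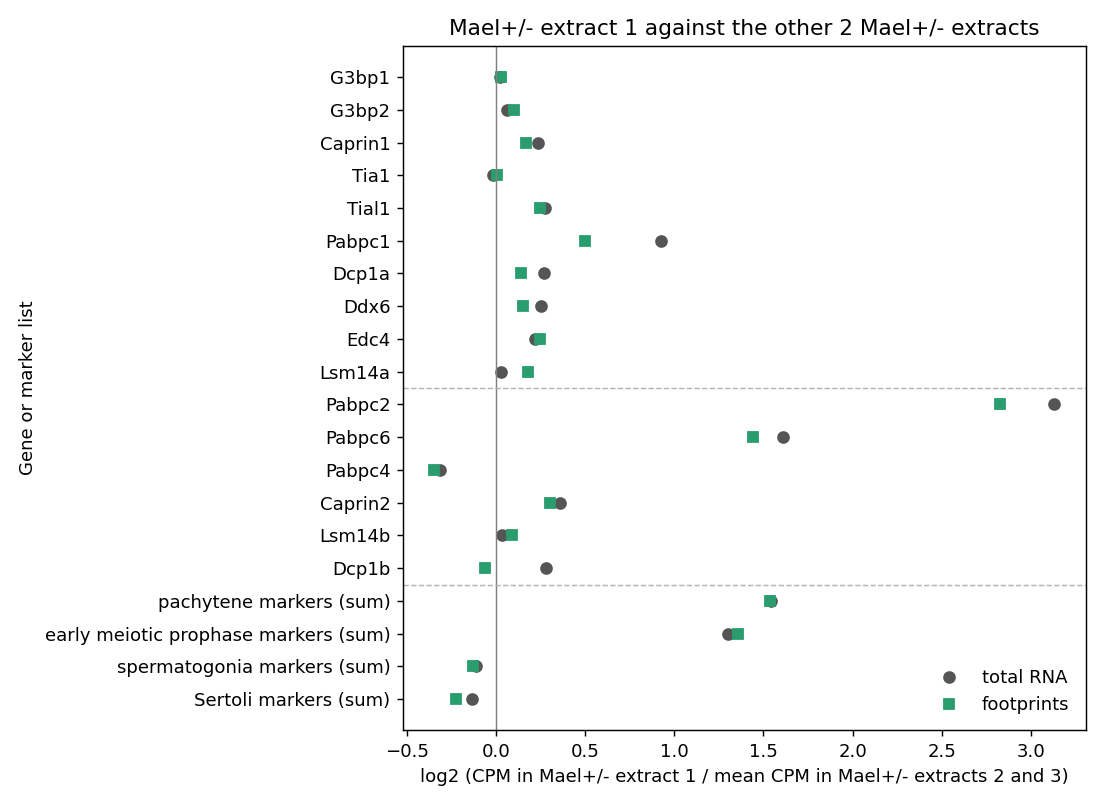
Log2 ratio of CPM in *Mael*+/- extract 1 to the mean of *Mael*+/- extracts 2 and 3, for the 10 genes, 6 of their paralogs and the summed markers of 4 cell types, with circles for RNA and squares for footprints. *Pabpc1* stands at 0.92 in RNA and 0.50 in footprints, apart from the other 9 genes, and the paralogs *Pabpc2* and *Pabpc6* and the markers of meiotic cells are higher still.

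The P-body genes showed no call and overlapped between genotypes in both assays. *Dcp1a*, a co-activator of decapping, was at 79.3, 67.5 and 64.0 CPM in *Mael*+/- and 72.3, 65.7 and 71.9 CPM in *Mael*-/- RNA. Its footprints were 54.1, 53.3 and 44.8 CPM in *Mael*+/- and 52.4, 48.3 and 51.5 CPM in *Mael*-/- libraries. The log2 fold changes, -0.01 (SE 0.10) and 0.00 (SE 0.11), were the smallest in RNA and in footprints (edgeR adjusted p 0.997 and 0.999).

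*Ddx6*, a helicase that represses translation and promotes decapping, was at 264, 205 and 238 CPM in *Mael*+/- and 256, 207 and 206 CPM in *Mael*-/- RNA. Its footprints were 243, 196 and 241 CPM in *Mael*+/- and 216, 199.7 and 222 CPM in *Mael*-/- libraries. Replicates of 1 genotype differed by more than the genotype means did, and the log2 fold changes were -0.08 (SE 0.12) and -0.09 (SE 0.11), with edgeR adjusted p of 0.982 and 0.998.

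*Edc4*, the scaffold that brings decapping factors together, was at 148, 134 and 121 CPM in *Mael*+/- and 141, 129 and 127 CPM in *Mael*-/- RNA. Its footprints were 231, 209 and 180.3 CPM in *Mael*+/- and 206, 212 and 198 CPM in *Mael*-/- libraries. In both assays the *Mael*-/- values lay inside the *Mael*+/- range. *Lsm14a*, a DDX6 partner, was at 88.6, 82.3 and 91.2 CPM in *Mael*+/- and 94.6, 88.3 and 84.4 CPM in *Mael*-/- RNA. Its footprints were 157, 134 and 142 CPM in *Mael*+/- and 140.5, 149.7 and 144 CPM in *Mael*-/- libraries. Its log2 fold changes were 0.03 (SE 0.09) and 0.00 (SE 0.09), beside -0.02 (SE 0.10) and -0.01 (SE 0.11) for *Edc4* (edgeR adjusted p 0.989 and 0.998 for *Lsm14a*, 0.991 and 0.998 for *Edc4*).

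Translation efficiency is the change of footprints beyond that of RNA, tested as the interaction of genotype and assay. None of the 10 genes was called, nor was any of 13448 genes (0%), and DESeq2 called none either. An unadjusted p under 0.05 was found for 0 members and for 53 genes, or 0.394%. This edgeR fit did not use the sharing of extracts between assays. With each extract as a term, the share of all genes was 2.07%, and the median SE of all genes was 0.124, against 0.184 without. Without that term, the log2 change of the 9 members other than *Pabpc1* ran from -0.02 for *Lsm14a* to 0.11 for *G3bp2*. Their 95% intervals lay between 0.770-fold and 1.33-fold. *Pabpc1* had the widest interval, at 0.28 (SE 0.31, 95% interval -0.39 to 0.95, edgeR adjusted p 0.9999). With each extract as a term, which uses the sharing of extracts between assays, it was 0.25 (SE 0.13, 95% interval -0.02 to 0.51), and without *Mael*+/- extract 1 it was 0.08 (SE 0.16). In the fit without extract terms, intervals within 1.5-fold were found for 9 of the 10 members and for 64.6% of all genes. With each extract as a term, the share of all genes was 79.4%.

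Footprints per RNA compared the members with each other, as log2 of footprint CPM per kb of coding sequence over RNA CPM per kb of exons in each extract. It depends on the lengths used and is no count of ribosomes, so it is read against the median gene, which stood at 1.08 to 1.10 in all 6 extracts. With the union of exons as length, the 10 genes fell into a higher and a lower set, a split that did not hold for every length used. *Tial1* was highest, at 2.55, 2.59 and 2.57 in *Mael*+/- and 2.56, 2.58 and 2.82 in *Mael*-/- extracts, which placed it at percentile 92.8 of genes. *Ddx6* followed at a mean of 2.44 ± 0.13 (SD, n = 6), *Lsm14a* at 2.30 ± 0.09, *G3bp2* at 2.09 ± 0.11, *Tia1* at 2.07 ± 0.09 and *Caprin1* at 1.91 ± 0.06. Each of these 6 overlapped the next in the order.

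With these lengths, a gap divided *Caprin1* from the other 4 genes. *Dcp1a* stood at 1.19 ± 0.07 and *Pabpc1* at 1.05 ± 0.26, near the median gene. *Edc4* stood at 0.81 ± 0.06 and *G3bp1* at 0.65 ± 0.12, at percentiles 35.1 and 27.4. *Pabpc1* varied most, from 0.65 in *Mael*+/- extract 1 to 1.38 in *Mael*-/- extract 3. With the curated transcript in place of the union of exons, *Tial1* moved to 2.10, *Tia1* to 1.495 and *G3bp1* to 0.42, with *Tial1* still first and *G3bp1* last. With the longest annotated transcript the order changed: *Tia1* was first at 2.52, ahead of *Tial1* at 2.32, and *Edc4* stood at 1.32, or from -0.28 to 0.27 relative to the median gene.

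**Figure D4:**
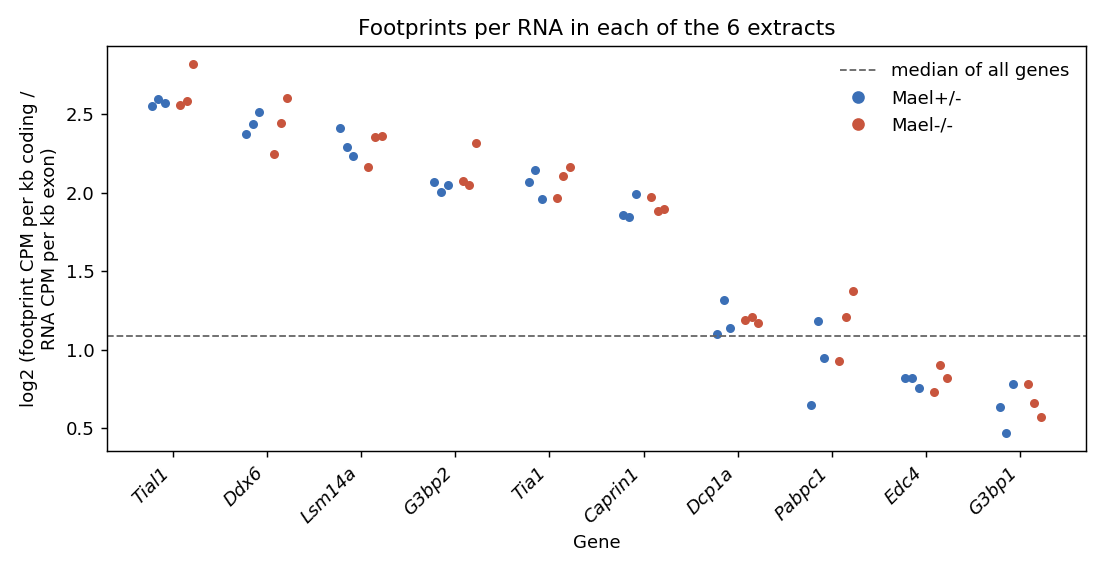
Log2 of footprint CPM per kb of coding sequence over RNA CPM per kb of exons for the 10 genes in each of 6 extracts, *Mael*+/- in blue and *Mael*-/- in red, with the median of all genes as a dashed line. The 6 genes on the left lie above the line in every extract, from *Tial1* to *Caprin1*, and *Edc4* and *G3bp1* lie below it in every extract, though *Edc4* does not with the longest annotated transcript. *G3bp1* moved to 1.51 when repeated sequence was left out, a length for which no median gene was computed.

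The members differed in how much of their sequence occurs elsewhere in the genome, which touches the levels above because how reads that match several places were counted is not stated. For *G3bp1*, 62.0% of the 30-base windows of its coding sequence were found letter for letter outside the gene in GRCm38, and for *Pabpc1* 50.7% and *Ddx6* 31.8%. For *Dcp1a* it was 6.69%, and for the other 6 genes it was at most 0.74%. A footprint is about as long as such a window. RNA reads were longer, and windows of 75 bases made up wholly of such repeated stretches took 19.4% of the *G3bp1* mRNA and 22.9% of that of *Pabpc1*. The share was 8.46% for *Ddx6*, 7.25% for *Caprin1*, whose repeated stretches lay outside its coding sequence, and at most 0.65% for the rest.

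*G3bp1* and *G3bp2* differ in this respect and were compared with and without these stretches. *G3bp2* exceeded *G3bp1* per kilobase of exons or coding sequence by 1.28 ± 0.159 fold in RNA and by 3.46 ± 0.317 fold in footprints (SD, 6 libraries), and per kilobase of the curated transcript by 1.23 ± 0.153 and 3.46 ± 0.317 fold. The same counts were then divided by a unique length, the curated length less its repeated share. The share was that of 75-base windows for RNA and of 30-base coding windows for footprints, so footprints per RNA then mixed unlike measures. Such a length holds only if reads from the repeated stretches were left uncounted. On it the ratio was 0.998 ± 0.124 in RNA and 1.32 ± 0.121 in footprints. On that length the footprint levels were 424 CPM per kb for *Pabpc1*, then first, 268 for *G3bp2*, 204 for *G3bp1* and 105 for *Lsm14a*, so that *G3bp1* came before *Lsm14a*. In log2 footprints per RNA *Ddx6* was then first at 2.49, and the gap between the higher and the lower genes was gone, with *Pabpc1* at 1.67 and *G3bp1* at 1.51 above *Caprin1* at 1.49 and *Dcp1a* at 1.26. *Tia1* and *Tial1* hardly differ in uniqueness. The ratio of *Tial1* to *Tia1* was 1.07 ± 0.119 in RNA and 1.56 ± 0.108 in footprints over the union of exons or coding sequence, and 0.986 ± 0.109 and 1.498 ± 0.104 over the curated transcript, where leaving out repeated stretches kept 0.986 in RNA and gave 1.51 in footprints.

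**Figure D5:**
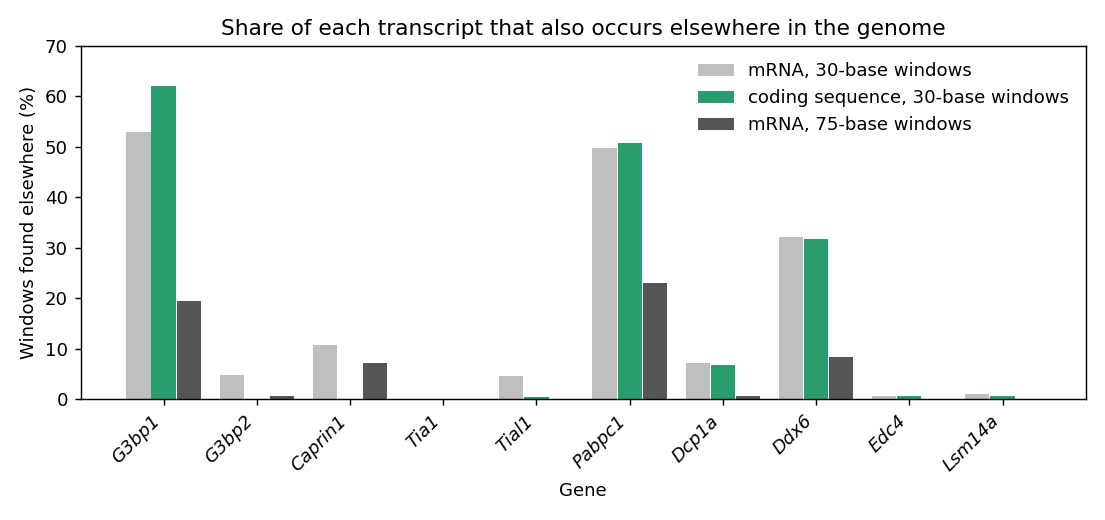
Percent of sequence windows of each of the 10 curated transcripts that also occur outside the gene in GRCm38, for 30-base windows of the mRNA (light bars), 30-base windows of the coding sequence (green bars) and 75-base windows of the mRNA (dark bars). *G3bp1*, *Pabpc1* and *Ddx6* stand above the other 7 genes, with 62.0%, 50.7% and 31.8% in coding sequence.

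Of 9 paralogs of the members, 8 were tested in RNA and 6 in footprints, and none was called by edgeR. With all libraries, all 8 and all 6 had a log2 fold change below 0, as did 50.38% of all genes in RNA and 52.49% in footprints. Without *Mael*+/- extract 1, *Pabpc6* was above 0 in RNA, as given below. *Pabpc2*, a poly(A)-binding protein gene expressed in the testis, had 79, 10 and 11 counts in *Mael*+/- RNA and 1, 0 and 2 in *Mael*-/- RNA, and 25, 2 and 5 against 1, 0 and 0 counts in footprints. Too few counts kept it out of the edgeR test, and DESeq2, run without that filter, called it in RNA (log2 fold change -4.86, SE 1.199, adjusted p 0.0206) and not in footprints (adjusted p 0.253). With no filter, edgeR gave -4.68 (SE 1.14, adjusted p 0.333) in RNA. The DESeq2 call was lost without *Mael*+/- extract 1, at -3.02 (SE 1.37, adjusted p 0.943), and edgeR with no filter then gave -2.87 (SE 0.85, adjusted p 0.237). *Pabpc6* was at 15.6, 5.12 and 5.14 CPM in *Mael*+/- and 5.97, 5.25 and 4.74 CPM in *Mael*-/- RNA. The edgeR log2 fold changes were -0.70 (SE 0.40) in RNA and -0.99 (SE 0.39) in footprints, neither called, and without *Mael*+/- extract 1 they were 0.04 and -0.32. Both genes were highest in that extract, as *Pabpc1* was, and reads that these similar genes may share were not told apart.

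*Pabpc4*, another cytoplasmic poly(A)-binding protein, was at 62.2 ± 7.67 CPM (SD, n = 3) in *Mael*+/- and 62.1 ± 2.61 CPM in *Mael*-/- RNA, and at 10.6 ± 1.86 and 9.34 ± 0.897 CPM in footprints. The scarce *Pabpc1l* and *Pabpc5* were below 1 CPM in every library, and *Pabpc4l* was at 5.33 ± 0.568 and 4.75 ± 0.781 CPM in RNA. *Lsm14b*, the paralog of *Lsm14a*, was at 181, 191 and 162 CPM in *Mael*+/- and 136, 152 and 148 CPM in *Mael*-/- RNA. Every *Mael*-/- library was lower, as for 5.03% of all genes (log2 fold change -0.29, SE 0.09, unadjusted p 0.00964, edgeR adjusted p 0.758). In footprints the edgeR estimate was -0.11 (SE 0.09, adjusted p 0.998). *Caprin2* was at 116 ± 17.9 and 103 ± 7.03 CPM, and *Dcp1b* at 22.9 ± 3.78 and 19.3 ± 1.30 CPM in RNA.

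The wider sets of granule genes gave no call either. Of 26 other stress granule genes, 0 were called by edgeR in RNA, footprints or translation efficiency, and an unadjusted p under 0.05 was found for 5, 1 and 0 of them, beside 5.4%, 4.33% and 0.394% of all genes. Without *Mael*+/- extract 1 it was found for 3, 2 and 0, beside 6.41%, 6.12% and 0.860% of all genes. The 5 in RNA, named after their values were seen, were *Ybx1*, *Elavl1*, *Larp1*, *Igf2bp1* and *Igf2bp3*, and the 1 in footprints was *Igf2bp3*. *Igf2bp3*, which encodes an mRNA-binding protein, had the lowest log2 fold change of the set in both assays. Its RNA was 26.4, 21.8 and 19.6 CPM in *Mael*+/- and 15.9, 18.1 and 16.3 CPM in *Mael*-/- libraries (log2 fold change -0.43, SE 0.14, edgeR adjusted p 0.793), and its footprints gave -0.40 (SE 0.15, edgeR adjusted p 0.998). Without *Mael*+/- extract 1, where its RNA was highest, these were -0.30 (SE 0.12) and -0.26 (SE 0.14). The highest were the fragile X homolog *Fxr2* in RNA, at 0.09 (SE 0.08), and the helicase *Ddx3x* in footprints, at 0.17 (SE 0.14).

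Of 20 other P-body genes, 0 were called in any of the 3 tests, and 1, *Tnrc6c*, had an unadjusted p under 0.05 in RNA. Without *Mael*+/- extract 1, 2 of the 20 had an unadjusted edgeR p under 0.05 in RNA, beside 6.41% of all genes, and 0 in the other tests. *Tnrc6c*, an Argonaute partner in miRNA silencing, was also the lowest in RNA, at -0.25 (SE 0.10, edgeR adjusted p 0.889) and -0.17 (SE 0.09) without *Mael*+/- extract 1, and the LSM ring subunit *Lsm5* the highest, at 0.19 (SE 0.13). In footprints, among genes averaging 50 counts or more, the lowest was *Lsm3* at -0.24 (SE 0.12) and the highest *Zfp36*, a decay factor for AU-rich mRNAs, at 0.22 (SE 0.13). The scarcer *Lsm7*, named after its value was seen, was lower, at -0.45 (SE 0.29). Of 15 genes of the CCR4-NOT and PAN deadenylases and their partners, which shorten poly(A) tails, 0 were called and 0 had an unadjusted p under 0.05 in any test. Without *Mael*+/- extract 1, 1 of the 15 had an unadjusted edgeR p under 0.05 in RNA, beside 6.41% of all genes. *Cnot3* was lowest in RNA at -0.28 (SE 0.14), or -0.15 (SE 0.12) without *Mael*+/- extract 1, and *Tob1* highest at 0.16 (SE 0.21), and in footprints *Cnot2* was lowest at -0.13 (SE 0.10) and *Tob2* highest at 0.19 (SE 0.12).

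In RNA most genes of the 3 sets lay slightly below 0, as the members did: 20 of 26, 15 of 20 and 14 of 15, with medians of -0.08, -0.08 and -0.09 on the log2 scale. Without *Mael*+/- extract 1 these counts were 13 of 26, 10 of 20 and 9 of 15, beside 49.46% of all genes, and the medians were -0.00, 0.00 and -0.03. In footprints the counts went from 20 of 26, 15 of 20 and 12 of 15 with that extract to 15 of 26, 11 of 20 and 8 of 15 without it, beside 51.19% of all genes. The footprint median of the other stress granule genes was -0.04 both with and without it, while those of the P-body and deadenylase sets went from -0.03 to -0.02 and from -0.06 to -0.03.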

How the data were processed

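The authors clipped linkers, removed ribosomal reads (Bowtie 1.2.2), aligned to mm10 (STAR 2.6.0c) and counted with featureCounts (Subread 1.6.4), over whole mRNAs for RNA and coding sequence for footprints, and deposited raw counts. Their handling of duplicate and multiply mapping reads and of strand is not given in the sources used here for these libraries. The deposited DESeq2 result tables hold the authors' fold changes and p-values and were not used. Counts were tested with edgeR 4.0.16 (R 4.3.3) using the quasi-likelihood test, TMM factors per assay, the default count filter and Benjamini-Hochberg adjustment over all genes, and calls were made at an adjusted p under 0.05. Scripts were tested on simulated data.

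RNA and footprints came from aliquots of the same extract, and their deviations from group means correlated at 0.66 to 0.80 in *Mael*+/- and 0.26 to 0.28 in *Mael*-/- over 12181 genes, above the limit of 0.1 for pairs. Lengths and sequences came from RefSeq on GRCm38, which matched 20410 of 20620 genes with both lengths. The text names the 10 members, *Mael*, the paralogs and, of each wider set, called genes and the highest and lowest fold change in each assay among those averaging 50 counts or more. Members, lists and tests were chosen with earlier results of these data known. The unique and curated lengths, and the DESeq2 and unfiltered edgeR fits without *Mael*+/- RNA replicate 1, were chosen after seeing the data.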

Additional observations from a re-analysis of the deposited data

How the results depend on the processing

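None of the 10 genes was called in RNA, footprints or translation efficiency by any of 43 alternative fits (DESeq2 1.42.0, median-of-ratios size factors, no filter on low counts, a replicate block, TMM over all libraries, and each library or extract left out). Of 430 member fold changes recomputed this way, 3 moved by more than their standard error, all of *Pabpc1* and all with a library or extract left out. The number of genes called did move: in RNA from 17 to 66 with DESeq2 and 2 to 64 with a replicate left out, and in footprints from 8 to 26 with DESeq2 and 2 to 17 with a replicate left out. DESeq2 called 1 other granule gene, *Pabpc2* in RNA, where edgeR had called 0, and without *Mael*+/- RNA replicate 1 DESeq2 called 0 as well. *Tial1* over *G3bp1* in log2 footprints per RNA was 1.96, and 1.45 with the longest annotated transcript, 1.68 with the curated transcript and 0.60 with its unique length. *Pabpc1* over *Tia1* in RNA per kb was 3.65 on the log2 scale, and 3.04 with the curated transcript.

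With the replicate number shared by the genotypes as a block, 50 genes were called in RNA and 23 in footprints, 0 of them members, and *Pabpc1* had an edgeR adjusted p of 0.0950 in RNA. Whether the numbers pair the genotypes could not be settled. Same-numbered libraries correlated at -0.02 to 0.27 in RNA and 0.06 to 0.26 in footprints, on both sides of the limit of 0.1. Of the libraries, 3 of 6 in RNA and 4 of 6 in footprints correlated best with their own number. The block of extracts in the test of translation efficiency changed no call, with 0 genes called. With 3 extracts per genotype and whole testes, differences within the intervals given remain compatible with these data.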
